A study of Mus musculus with 11 samples.

Results

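The genes described here encode 10 subunits of voltage-gated calcium channels in mouse dorsal root ganglia (DRGs), among them both α2δ subunits that bind the gabapentinoid drugs. The rule takes them by gene name, and each name matched 1 of the 36670 genes of the deposited expression table. The members are the α2δ genes *Cacna2d1*, *Cacna2d2* and *Cacna2d3*, the α1 genes *Cacna1a*, *Cacna1b*, *Cacna1c* and *Cacna1h*, and the β genes *Cacnb1*, *Cacnb3* and *Cacnb4*. Poly(A) RNA of DRGs from 11 mice was sequenced, with 1 library per mouse: 3 WT controls, 3 WT mice at 4 weeks after paclitaxel (PTX), 3 *Gpr37l1* KO controls and 2 *Gpr37l1* KO mice at 4 weeks after PTX. Paclitaxel is an anticancer drug whose use is limited by painful neuropathy, and *Gpr37l1* is an orphan G protein–coupled receptor gene of satellite glial cells. The KO is a germline allele (Gpr37l1tm1Lex, from a B6;129S5 strain), so every cell type lacks the gene. The paper describes the line and its littermates as having a C57BL/6 background, and adult mice for its behavioral and biochemical work. Its main text does not give the age of the sequenced mice. Nor does it say whether the sequenced WT mice were littermates of the KO mice. Each group has 1 mouse labelled female, its replicate 3, and the rest are labelled male, so the labelled sex cannot be told apart from the replicate number. PTX and control libraries come from different mice, and a group's libraries are separate mice.

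A voltage-gated calcium channel has an α1 subunit, which forms the pore and senses voltage. In high-voltage-activated channels, a β subunit in the cytoplasm and an α2δ subunit on the outer face of the membrane bring α1 to the surface and tune its gating. CaV2.1 (*Cacna1a*, P/Q-type) and CaV2.2 (*Cacna1b*, N-type) open at nerve terminals and trigger transmitter release, CaV1.2 (*Cacna1c*, L-type) couples activity to transcription, and CaV3.2 (*Cacna1h*, T-type) opens near the resting potential and sets the excitability of sensory neurons. Gabapentin and pregabalin bind the α2δ-1 and α2δ-2 proteins (*Cacna2d1* and *Cacna2d2*) but not α2δ-3 (*Cacna2d3*), and the *Cacna2d1* transcript is known to rise in DRG neurons after injury of their axons.

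The coding stretch around the gabapentin-binding arginines is shown first, since it separates the drug targets from *Cacna2d3*. Each line gives 30 bases of the GENCODE M21 transcript with the longest coding sequence on GRCm38, 5′ to 3′, and the capitals mark the codons at the place of 3 arginines in a row.
*Cacna2d1* (chr5:16264311-16266699, plus strand, exons 8 and 9 of 39): gtaCGCAGAAGAccatggtacatccaggga
*Cacna2d2* (chr9:107512344-107513066, plus strand, exons 8 and 9 of 39): gtcAGAAGACGAccctggtatatacagggg
*Cacna2d3* (chr14:29347019-29347138, minus strand, exons 7 and 8 of 38): tgcAGGAACAGAaaatggtacatccaggca

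In *Cacna2d1* and *Cacna2d2*, 3 of 3 capital codons encode arginine, against 2 of 3 in *Cacna2d3*, where the middle codon differs. *Cacna2d1* and *Cacna2d2* share 22 of the 30 bases, *Cacna2d1* and *Cacna2d3* share 20, and *Cacna2d2* and *Cacna2d3* share 17. The coordinates of each stretch include the intron between its exons. The stretch by which high-voltage-activated α1 subunits hold a β subunit is shown next, as the known contact between the α1 and β members. Capitals mark the codons of the conserved tyrosine and tryptophan.
*Cacna1a* (chr8:84536149-84536403, plus strand, exons 8 and 9 of 47): ggaTACatggagTGGatctcaaaagcagaa
*Cacna1b* (chr2:24719100-24719968, minus strand, exons 8 and 9 of 47): gggTACttggagTGGatcttcaaggcagag
*Cacna1c* (chr6:118734906-118734935, minus strand, exon 9 of 48): ggcTACctggacTGGatcacccaggcagaa

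The coding sequence of *Cacna1h* had no match to this pattern (glycine and tyrosine, 2 free residues, tryptophan and isoleucine, 3 free residues, glutamate), which says only that the pattern was not in this transcript. T-type channels are known to work without a β subunit.

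The estimated counts summed to 52735648 to 80348732 per library, and both KO PTX libraries lay near the lower end (54914928 and 56747335). Each member had at least 2913 counts in each library. *Gpr37l1* measured 14.6 to 35.7 FPKM in the WT libraries and 0.21 to 1.15 FPKM in the KO libraries, as labelled. FPKM is a transcript level scaled for gene length and library size. Of the 14 sensory neuron markers 14 were detected, with summed levels of 5907 to 6756 FPKM, and 7 of 7 satellite glial markers had summed levels of 1026 to 1464 FPKM. RNA of other tissues differed between libraries. The 14 skeletal muscle genes summed to 4.94 FPKM in WT PTX 3 and to 724 FPKM in KO control 2. The 11 spinal cord and central glia genes summed to 19.0 FPKM in KO PTX 3 and to 1.44 to 5.74 FPKM in the other libraries. Genes of injured sensory neurons were high in 2 of the 3 WT controls: the 11 nerve injury genes summed to 429 FPKM in WT control 2, to 225 FPKM in WT control 1 and to 60.5 to 158 FPKM elsewhere. In whole ganglia, fewer cells of a type and less RNA per cell cannot be told apart.

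The β gene *Cacnb3* had by far the highest level, a mean of 74.9 ± 4.92 FPKM (SD, n = 11 mice). It was followed by *Cacna2d1* at 16.6 ± 3.54, *Cacnb1* at 13.5 ± 0.91 and *Cacnb4* at 12.8 ± 1.44 FPKM. *Cacna1b*, the N-type pore, was at 11.2 ± 0.50 FPKM and *Cacna2d2* at 9.44 ± 3.26 FPKM. The lower end held *Cacna2d3* at 7.13 ± 0.30, *Cacna1a* at 6.27 ± 0.61, *Cacna1h* at 5.46 ± 0.48 and *Cacna1c* at 2.85 ± 0.21 FPKM. *Cacnb3* stood 4.58-fold above *Cacna2d1* in geometric mean, and it was the higher of the 2 in 11 of 11 libraries (exact sign-flip permutation test, two-sided, p = 0.000977, adjusted p = 0.0029 over the 12 pairs compared, the smallest unadjusted p that 11 libraries allow being 0.000977). In the whole order, 3 pairs of neighbours did not pass: *Cacnb1* and *Cacnb4* (adjusted p = 0.27), *Cacna1b* and *Cacna2d2* (0.071) and *Cacna2d2* and *Cacna2d3* (0.071), all by the same exact test. The other 6 pairs had adjusted p of 0.0029 to 0.0078. The order, and so the pairs and their direction, came from the mean FPKM of the same 11 libraries. These tests thus show only how far the libraries agree on each pair. They do not measure how well FPKM compares different genes. The 10 ranks were the same in the 6 control libraries alone, and also from counts scaled for library size and exon length.

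**Figure D1:**
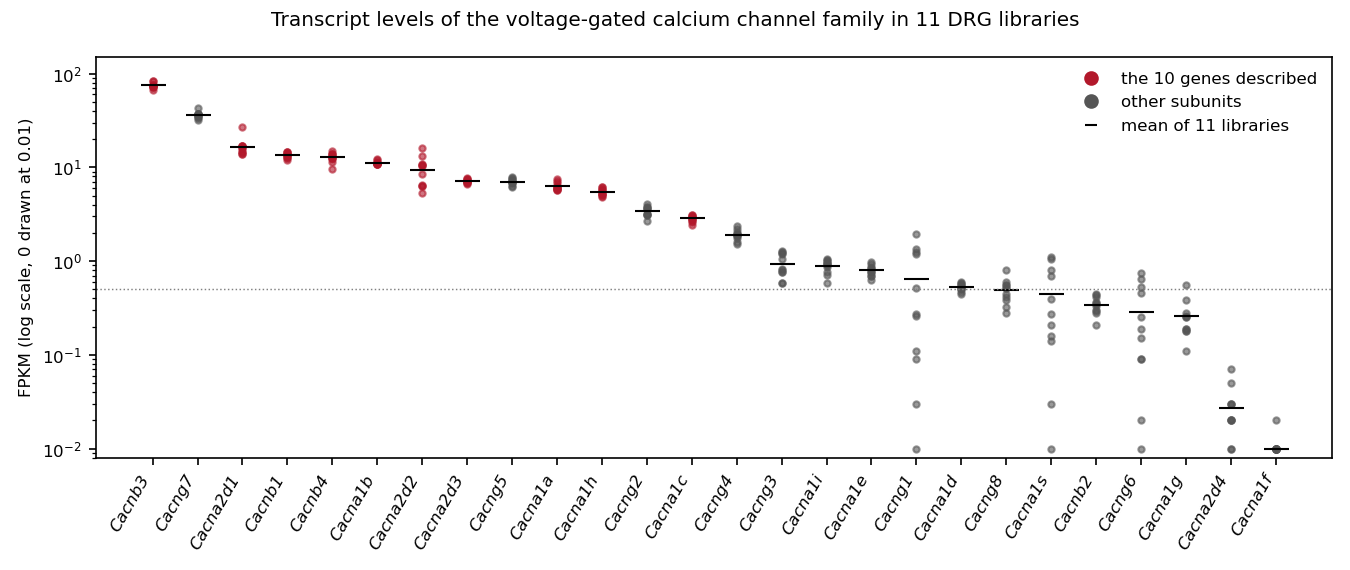
Transcript level of each calcium channel subunit gene (FPKM, log axis) in the 11 DRG libraries, 1 point per library and a black bar for the mean; values of 0 are drawn at 0.01 and the dotted line marks 0.5 FPKM. Red points are the 10 genes described and grey points the other subunits. *Cacnb3* is highest at 74.9 FPKM, *Cacng7* is second at 36.4 FPKM, and *Cacna1s*, *Cacng1* and *Cacng6* vary most between libraries.

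The makeup was steady for the α1 genes, and among the β genes for the share of *Cacnb3* but not of *Cacnb4*. *Cacnb3* made up 71.7% to 78.4% of the summed FPKM of the 3 β genes. *Cacnb4* ran from 9.03% in WT control 1 to 15.2% in WT PTX 1. The ratio of *Cacnb3* to *Cacnb4* was 6.16 to 8.68 in WT controls and 4.78 to 5.28 in WT PTX mice, without overlap. In the KO it was 5.23 to 5.79 in controls and 5.56 to 6.65 after PTX, with overlap. *Cacna1b* made up 39.7% to 45.3% of the summed FPKM of the 4 α1 genes, with *Cacna1a* at 22.6% to 27.1%, *Cacna1h* at 19.3% to 23.6% and *Cacna1c* at 9.77% to 11.9%. *Cacna1b* was the higher of *Cacna1b* and *Cacna1a* in 11 of 11 libraries, at 1.80-fold in geometric mean (exact sign-flip permutation test, two-sided, adjusted p = 0.0029). The α2δ class was the least steady, with *Cacna2d1* at 40.4% to 66.6%, *Cacna2d2* at 15.96% to 41.7% and *Cacna2d3* at 17.5% to 25.4%.

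Across libraries *Cacna2d2* varied most of the 10 genes, with a coefficient of variation of 34.5%, followed by *Cacna2d1* at 21.3%. The other members lay between 4.26% (*Cacna2d3*) and 11.2% (*Cacnb4*). The highest library exceeded the lowest 2.98-fold for *Cacna2d2*, 1.94-fold for *Cacna2d1* and 1.13-fold for *Cacna1b*.

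**Figure D2:**
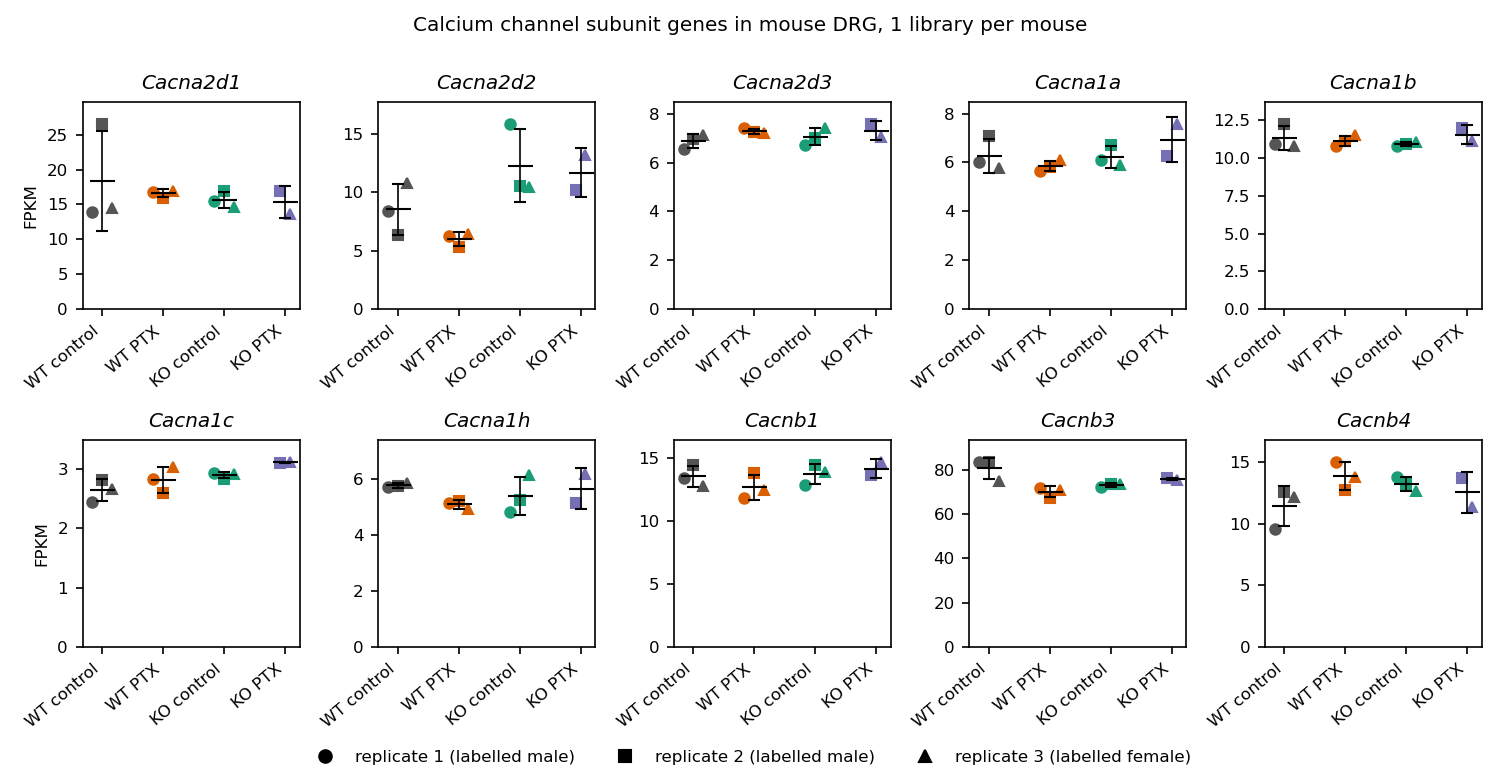
FPKM of the 10 genes in the 4 groups, 1 point per mouse with its replicate number by shape, and the mean with SD in black; each axis starts at 0. *Cacna2d1* is high only in WT control 2 (26.6 FPKM). *Cacna2d2* is at 10.2 to 15.9 FPKM in the KO libraries. It is at 6.37 to 10.8 FPKM in the WT controls and at 5.33 to 6.44 FPKM in the WT PTX libraries.

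*Cacna2d1*, the main gabapentinoid target (chr5:15934691-16374511, plus strand, GRCm38), was at 13.9, 26.6 and 14.5 FPKM in the WT controls and at 16.9, 15.9 and 17.0 FPKM in the WT PTX mice. In the KO it was at 15.5, 16.9 and 14.7 FPKM in controls and at 17.0 and 13.7 FPKM after PTX. A single library, WT control 2, stood apart, and the remaining 10 lay between 13.7 and 17.0 FPKM. The log2 difference of PTX against control in WT was -0.13 ± 0.20 (SE), with a 95% interval of the fold of 0.68 to 1.24 (edgeR quasi-likelihood test, adjusted p = 0.783). KO controls differed from WT controls by -0.21 ± 0.20 (SE) on the log2 scale, a fold of 0.86 with an interval of 0.64 to 1.17 (adjusted p = 0.772). Both directions rested on that library: without WT control 2 the log2 differences were 0.21 and 0.13 in place of -0.13 and -0.21, with adjusted p of 0.333 and 0.607.

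WT control 2 was also the library with the highest level for 10 of the 11 nerve injury genes. There *Atf3*, a transcription factor of injured sensory neurons, was at 60.2 FPKM, *Sprr1a*, a protein of regrowing axons, at 118 FPKM and *Gal*, the neuropeptide galanin, at 130 FPKM. WT control 1 came second for 9 of the 11 injury genes, with *Atf3* at 34.8 FPKM, *Sprr1a* at 57.3 FPKM and *Gal* at 49.5 FPKM, and its *Cacna2d1* level of 13.9 FPKM was the second lowest of all. *Cacna2d1* was thus high in 1 of the 2 libraries with high injury genes. The part of the injury genes in these differences was examined only by 2 alternatives chosen after seeing the data. With the injury score as a covariate, the log2 differences of *Cacna2d1* were 0.29 for PTX in WT and 0.07 for KO controls. Without both WT controls, they were 0.13 and 0.05, with the labelled female as the only WT control left. Differences without both WT controls, here and below, thus rest on 1 mouse as the reference. *Cacna2d1* is also the α2δ of skeletal muscle. It was at 17.0 FPKM in the library with the least muscle RNA and at 16.9 FPKM in the library with the most. A muscle score entered only as a covariate in 1 alternative fit, and the part of muscle RNA in the level of *Cacna2d1* was not tested further. Over all alternatives the log2 difference of *Cacna2d1* for PTX in WT ran from -0.34 to 0.29.

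**Figure D3:**
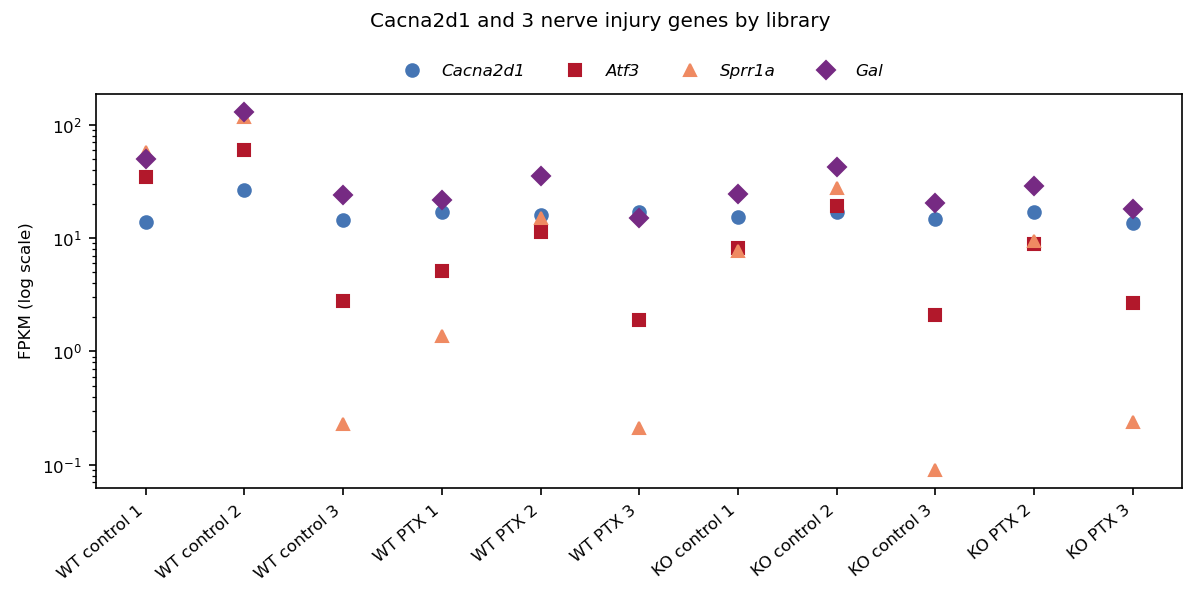
FPKM (log axis) of *Cacna2d1* and of the nerve injury genes *Atf3*, *Sprr1a* and *Gal* in each of the 11 libraries. Each of the 4 genes is highest in WT control 2; in WT control 1 the injury genes are second highest while *Cacna2d1* is at 13.9 FPKM.

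*Cacna2d2*, the second gabapentinoid target (chr9:107399612-107529343, plus strand), was the member that differed most between groups. It was at 8.43, 6.37 and 10.8 FPKM in the WT controls and at 6.25, 5.33 and 6.44 FPKM after PTX in WT. In the KO it was at 15.9, 10.5 and 10.5 FPKM in controls and at 10.2 and 13.2 FPKM after PTX. The groups after PTX did not overlap, and the lowest KO library lay above 5 of the 6 WT libraries. KO PTX mice exceeded WT PTX mice 1.90-fold, with a 95% interval of 1.35 to 2.67 (log2 0.93 ± 0.22 SE). This did not pass edgeR's threshold (adjusted p = 0.993, unadjusted p = 0.00184 by the quasi-likelihood test), and it passed that of DESeq2 (adjusted p = 0.0077), the lowest over the alternatives, whose adjusted p otherwise ran from 0.101, with these 2 groups alone, to 1.0. Averaged over treatments, the KO exceeded the WT 1.67-fold, with an interval of 1.33 to 2.10 (edgeR adjusted p = 0.730, DESeq2 adjusted p = 1.6e-04). In controls the fold was 1.47 with an interval of 1.08 to 2.0 (edgeR adjusted p = 0.657, DESeq2 adjusted p = 0.222). The log2 difference of KO controls was smallest without KO control 1 (0.29) and without both WT controls with high injury genes (0.24). In the latter case the labelled female was the only WT control.

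In WT, *Cacna2d2* was lower after PTX, at 0.71-fold with an interval of 0.52 to 0.96, and this did not pass (edgeR adjusted p = 0.346, unadjusted p = 0.0319). The groups overlapped, since WT control 2 lay within the range of the WT PTX mice. The log2 difference was -0.50, and it was -0.33 without WT control 3, -0.32 with the muscle score and -0.80 without both WT controls of high injury genes. In the last case the labelled female was the only WT control. In KO the fold was 0.92 with an interval of 0.65 to 1.30 (adjusted p = 0.999). The difference of the PTX effect between KO and WT was 0.37 ± 0.30 (SE) on the log2 scale (adjusted p = 0.764), and it ran from 0.11 without KO control 3 to 0.62 without KO control 1. The spinal cord genes were highest in KO PTX 3, where *Cacna2d2* was at 13.2 FPKM. *Cacna2d2* was highest, at 15.9 FPKM, in KO control 1, where those genes summed to 1.79 FPKM, and it was at 6.44 FPKM in WT PTX 3, where they summed to 5.67 FPKM. With their score as a covariate the log2 difference between KO and WT after PTX was 0.76, and without KO PTX 3 it was 0.80. The part of spinal cord RNA in the level of *Cacna2d2* was not tested further. The antisense gene *Gm17141*, which overlaps an exon of *Cacna2d2*, was at 0.009 FPKM in the mean.

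Taking *Cacna2d1* and *Cacna2d2* together, *Cacna2d1* was the higher in 10 of 11 libraries, at 1.82-fold in geometric mean (exact sign-flip permutation test, two-sided, adjusted p = 0.0047). The exception was KO control 1, with a ratio of 0.98. The ratio ran from 2.64 to 2.99 in WT PTX mice, from 1.35 to 4.17 in WT controls, from 0.98 to 1.61 in KO controls and from 1.04 to 1.66 in KO PTX mice. The KO minus WT difference of the log2 ratio, averaged within treatment, was -0.88 and did not pass after adjustment (exact stratified permutation test over 200 arrangements, two-sided, p = 0.02, adjusted p = 0.12 over 6 tests). The other 5 tests of ratios had adjusted p of 0.495 to 0.99 by the same exact test. In shares of the α2δ transcripts, *Cacna2d2* made up 29.4% to 41.7% in the KO and 15.96% to 33.3% in the WT.

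**Figure D4:**
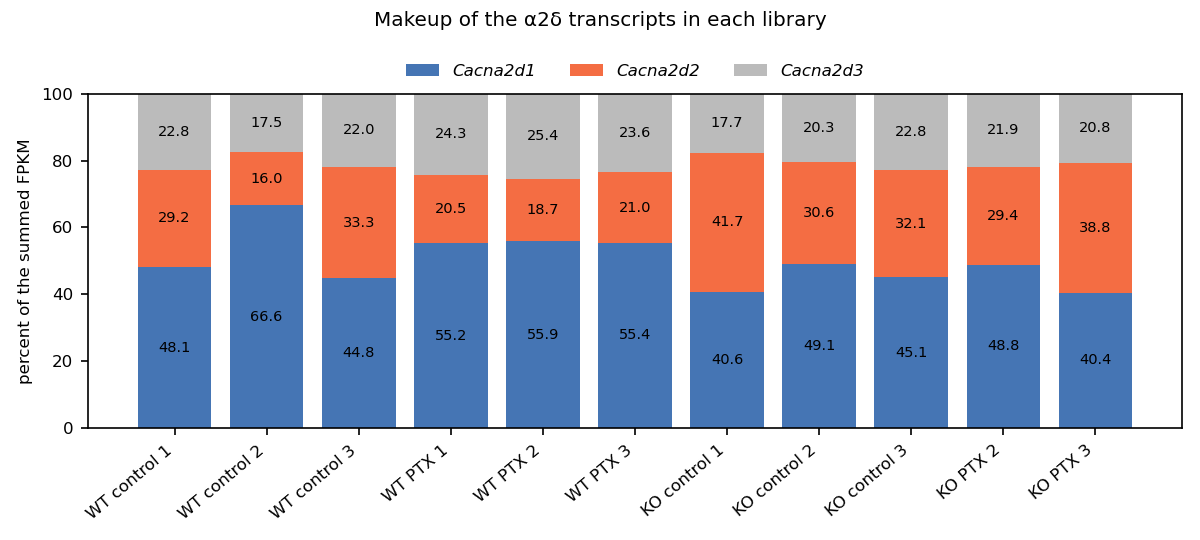
Share of *Cacna2d1*, *Cacna2d2* and *Cacna2d3* in the summed FPKM of the 3 α2δ genes (percent, stacked to 100) in each library. *Cacna2d1* holds 66.6% in WT control 2 and 55.2% to 55.9% in the WT PTX libraries, and *Cacna2d2* holds 29.4% to 41.7% in the KO libraries.

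*Cacna2d3*, the α2δ that gabapentinoids do not bind (chr14:28904943-29721864, minus strand), hardly varied. It was at 6.58, 6.97 and 7.12 FPKM in WT controls and at 7.42, 7.25 and 7.22 FPKM after PTX in WT, at 6.74, 7.01 and 7.43 FPKM in KO controls and at 7.60 and 7.04 FPKM in KO PTX mice. The WT PTX mice lay above the WT controls without overlap, by 1.06-fold with an interval of 0.96 to 1.16 (edgeR adjusted p = 0.572).

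Among the α1 genes, *Cacna1b* (chr2:24603887-24763152, minus strand) was the steadiest. It was at 10.9, 12.3 and 10.8 FPKM in WT controls, at 10.8, 11.1 and 11.5 FPKM in WT PTX mice, at 10.8, 10.9 and 11.1 FPKM in KO controls and at 12.02 and 11.1 FPKM in KO PTX mice. KO PTX mice lay just above KO controls, at 1.06-fold with an interval of 0.94 to 1.19 (edgeR adjusted p = 0.999).

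*Cacna1a* (chr8:84388440-84640246, plus strand, a start that differs from the deposited one) was at 6.00, 7.07 and 5.75 FPKM in WT controls and at 5.66, 5.80 and 6.09 FPKM in WT PTX mice. KO controls were at 6.08, 6.73 and 5.88 FPKM and KO PTX mice at 6.28 and 7.58 FPKM. The KO PTX mice lay above the WT PTX mice, by 1.19-fold with an interval of 0.99 to 1.43 (edgeR adjusted p = 0.993). The highest value was that of KO PTX 3, the library with the most spinal cord RNA. Without it the log2 difference was 0.07 in place of 0.25, without KO PTX 2 it was 0.44, and it was 0.02 with the spinal cord score as a covariate.

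*Cacna1h* (chr17:25374285-25433783, minus strand), the T-type channel of nociceptors, was at 5.70, 5.75 and 5.87 FPKM in WT controls and at 5.13, 5.23 and 4.92 FPKM in WT PTX mice. These groups did not overlap, and the fold was 0.88 with an interval of 0.77 to 1.00 (edgeR adjusted p = 0.382, unadjusted p = 0.0565). The log2 difference was -0.18, and -0.08 without both WT controls of high injury genes, which left the labelled female as the only WT control. In the KO it was at 4.81, 5.24 and 6.13 FPKM in controls and at 5.13 and 6.17 FPKM after PTX, and these groups overlapped.

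*Cacna1c* (chr6:118587240-119196418, minus strand, an end that differs from the deposited one) had the lowest level of the members. It was at 2.45, 2.82 and 2.66 FPKM in WT controls, at 2.84, 2.59 and 3.03 FPKM in WT PTX mice, at 2.93, 2.84 and 2.92 FPKM in KO controls and at 3.11 and 3.12 FPKM in KO PTX mice. KO libraries lay above WT libraries without overlap among controls and again after PTX. Averaged over treatments the KO exceeded the WT 1.10-fold, with an interval of 1.01 to 1.2 (edgeR adjusted p = 1.0, unadjusted p = 0.0379). *Dcp1b*, on the opposite strand, overlaps an exon of *Cacna1c* and was at 1.72 FPKM in the mean, and reads of the pair cannot be told apart if the counting ignored strand, which was not stated.

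*Cacnb3* (chr15:98630840-98644529, plus strand), the main β of the ganglion and a partner of N-type channels, was at 83.4, 83.6 and 75.2 FPKM in WT controls and at 71.9, 67.3 and 71.0 FPKM in WT PTX mice. In the KO it was at 72.3, 73.7 and 73.4 FPKM in controls and at 76.3 and 75.6 FPKM after PTX. The WT PTX mice lay below the WT controls and the KO PTX mice above the KO controls, both without overlap. The fold in WT was 0.87 with an interval of 0.78 to 0.96 and did not pass (edgeR adjusted p = 0.276, unadjusted p = 0.00977, DESeq2 adjusted p = 0.104). In KO the fold was 1.04 with an interval of 0.93 to 1.17 (edgeR adjusted p = 0.999). The difference of the 2 PTX effects was 0.27 ± 0.10 (SE) on the log2 scale, with an unadjusted p of 0.0212 and an adjusted p of 0.724 by edgeR. The highest levels were those of WT controls 1 and 2, the libraries with high injury genes, and without both the log2 difference of PTX in WT was -0.08 in place of -0.21. Without both, the labelled female was the only WT control, so such values rest on 1 mouse as the reference. KO controls lay below WT controls at 0.91-fold (interval 0.82 to 1.00, edgeR adjusted p = 0.657), where without the same pair of WT controls the log2 difference was -0.01 in place of -0.14. KO PTX mice lay above WT PTX mice at 1.09-fold (interval 0.97 to 1.22, adjusted p = 0.993), a log2 difference of 0.12 that was 0.035 with the spinal cord score. The difference of the PTX effects was 0.13 without both WT controls and 0.16 with the spinal cord score.

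*Cacnb4* (chr2:52428320-52676831, minus strand), a β found with P/Q-type channels in the brain, was at 9.60, 12.6 and 12.2 FPKM in WT controls and at 15.0, 12.8 and 13.8 FPKM in WT PTX mice. These groups did not overlap, and the fold was 1.21 with an interval of 1.02 to 1.43 (edgeR adjusted p = 0.346, unadjusted p = 0.0318). KO controls, at 13.8, 13.2 and 12.7 FPKM, also lay above WT controls, at 1.16-fold with an interval of 0.98 to 1.37 (adjusted p = 0.668). KO PTX mice were at 13.7 and 11.4 FPKM. The lowest value was that of WT control 1, without which the log2 difference of PTX in WT was 0.15 in place of 0.27 and that of KO controls 0.088 in place of 0.21. Without both WT controls of high injury genes these were 0.13 and 0.064, with the labelled female as the only WT control. The difference of the PTX effect between KO and WT was -0.34 ± 0.16 (SE) on the log2 scale (edgeR adjusted p = 0.724), and it was -0.22 without WT control 1, -0.22 without KO PTX 3 and -0.074 with the spinal cord score.

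*Cacnb1* (chr11:98001508-98023034, minus strand), which also encodes the β of skeletal muscle, was at 13.4, 14.5 and 12.8 FPKM in WT controls and at 11.9, 13.8 and 12.4 FPKM in WT PTX mice. KO controls were at 12.9, 14.5 and 13.9 FPKM and KO PTX mice at 13.7 and 14.7 FPKM, and the groups overlapped in each comparison. *Cacnb1* was at 12.4 FPKM in the library with the least muscle RNA and at 14.5 FPKM in that with the most. It was also at 14.5 FPKM in WT control 2, where muscle genes summed to 20.1 FPKM. The part of muscle RNA in the level of *Cacnb1* was not tested beyond the muscle score used as a covariate.

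Taken over all members, none passed the edgeR threshold of an adjusted p under 0.05 in any comparison. For PTX in WT, 0 of 10 members were called, beside 1 of the 15087 genes tested (0.00663%). At an unadjusted p under 0.05, 3 of 10 members (*Cacna2d2*, *Cacnb3* and *Cacnb4*) stood beside 13.5% of all genes, and 4 of 10 had groups that did not overlap beside 14.2% of all genes. DESeq2 called 0 members and 2.05% of all genes here. The members' median log2 difference was -0.10, against -0.01 over all genes.

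For PTX in KO, edgeR called 0 of 10 members and 0.00663% of all genes, at an unadjusted p under 0.05 it gave 0 of 10 members and 4.32% of all genes, and DESeq2 called 0 members and 0.192% of all genes. Groups did not overlap for 3 of 10 members (*Cacna1b*, *Cacna1c* and *Cacnb3*), beside 21.6% of all genes. Members' log2 differences lay between -0.12 and 0.15, with a median of 0.05 against -0.01 over all genes. For *Cacna1c* the fold was 1.07 with an interval of 0.94 to 1.22.

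For KO against WT controls, edgeR called 0 of 10 members and 0.00663% of all genes, and DESeq2 called 0 members and 0.278% of all genes. *Cacna2d2* alone had an unadjusted p under 0.05, beside 7.54% of all genes. Groups did not overlap for *Cacna1c*, *Cacnb3* and *Cacnb4*, 3 of 10 members beside 9.28% of all genes. The members' median log2 difference was 0.006, against 0.003 over all genes. *Cacna1c* was at 1.10-fold with an interval of 0.98 to 1.23.

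After PTX, edgeR called 0 of 10 members and 0.0133% of all genes between KO and WT, and DESeq2 called *Cacna2d2* and 0.0663% of all genes. The unadjusted p was under 0.05 for *Cacna2d2* alone, beside 3.55% of all genes. Groups did not overlap for *Cacna2d2*, *Cacna1a*, *Cacna1c* and *Cacnb3*, 4 of 10 members beside 20.2% of all genes. The members' median log2 difference was 0.13, against -0.01 over all genes. *Cacna1c* was at 1.10-fold with an interval of 0.97 to 1.25, and its log2 difference of 0.14 was 0.08 without WT PTX 2 and 0.22 without WT PTX 3.

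**Figure D5:**
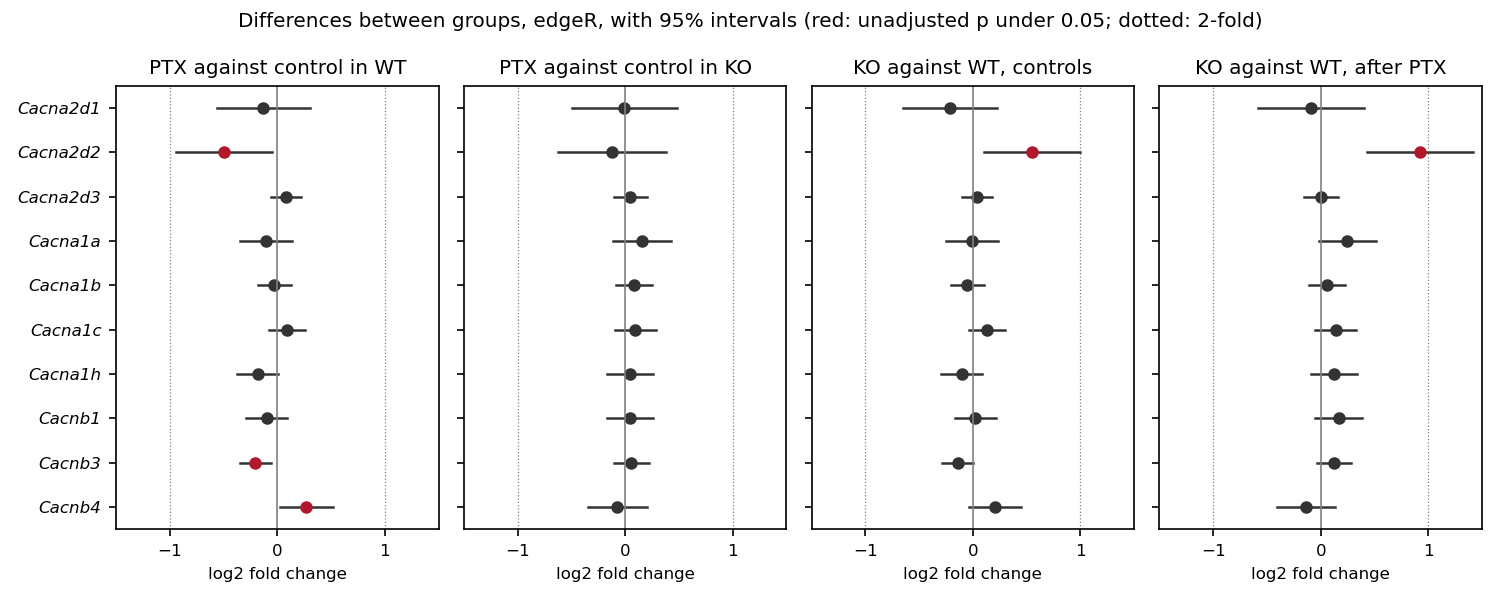
Log2 fold change of each member with its 95% interval (edgeR) in the 4 comparisons of 2 groups; dotted lines mark a 2-fold change and red points an unadjusted p under 0.05. Of the 40 intervals 39 lie within 2-fold, and the exception is *Cacna2d2* in KO against WT after PTX (0.43 to 1.42 on the log2 scale).

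The intervals bound how large a difference these libraries leave room for. Over the 4 comparisons, 39 of 40 intervals of the fold lay within 2-fold and 35 of 40 within 1.5-fold, and the intervals beyond 1.5-fold belonged to *Cacna2d1* and *Cacna2d2*. Over all genes, the share of intervals within 2-fold was 88.2% for the PTX effect in WT, 86.1% for that in KO, 89.4% for KO controls and 86.7% after PTX, and the share within 1.5-fold was 69.5%, 68.9%, 72.2% and 69.4%. For the difference of the PTX effect between KO and WT, edgeR called 0 of 10 members and 0.00663% of all genes, with 1 member (*Cacnb3*) and 6.30% of all genes at an unadjusted p under 0.05, and DESeq2 called 0 members and 0.0795% of all genes. Averaged over genotypes, PTX gave 0 of 10 members by edgeR (0.0133% of all genes), 0 at an unadjusted p under 0.05 (9.36%) and 0 by DESeq2 (0.829%). Averaged over treatments, the KO gave 0 of 10 members by edgeR (0.0133%), 2 at an unadjusted p under 0.05 (*Cacna2d2* and *Cacna1c*, beside 3.75%) and 1 by DESeq2 (*Cacna2d2*, beside 0.186%). Between labelled females and males, edgeR called 0 of 10 members and 0.0398% of all genes, 0 members had an unadjusted p under 0.05 beside 8.44% of all genes, DESeq2 called 0 members and 0.822% of all genes, and members' log2 differences lay between -0.22 and 0.17.

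Of the 16 other calcium channel subunit genes, 9 had a mean of at least 0.5 FPKM and were tested. *Cacng7*, which encodes a γ-like protein that also serves AMPA receptors, was highest at 36.4 FPKM (32.2 to 43.2), followed by *Cacng5* at 7.02 FPKM and *Cacng2* at 3.43 FPKM. Other α1 genes were low: *Cacna1i* at 0.88, *Cacna1e* at 0.79, *Cacna1d* at 0.53 and *Cacna1g* at 0.26 FPKM. *Cacna2d4*, the α2δ of the retina, was at 0.03 FPKM, and *Cacnb2*, the β of the heart, was at 0.34 FPKM. The skeletal muscle subunits *Cacna1s*, *Cacng1* and *Cacng6* ranged from 0.01 to 1.10, from 0 to 1.95 and from 0 to 0.75 FPKM. Their values were 0.01, 0 and 0.02 FPKM in WT PTX 3, where muscle genes summed to 4.94 FPKM, and 1.10, 1.18 and 0.75 FPKM in WT control 1, where they summed to 674 FPKM. None of the 9 tested subunits passed edgeR's or DESeq2's threshold in any of the 8 comparisons. At an unadjusted p under 0.05 there were 2 of 9 for PTX in WT (13.5% of all genes, median log2 difference 0.08 against -0.01 over all genes), with *Cacna1d* at 0.25 ± 0.11 (SE, adjusted p = 0.361). There were 0 of 9 for the PTX effect in KO (4.32% of all genes), 0 of 9 between KO and WT controls (7.54%) and 1 of 9 between KO and WT after PTX (3.55%), with *Cacng7* at 0.21 (adjusted p = 0.993). The genes with the smallest p elsewhere were *Cacng2* for the PTX effect in KO (log2 difference 0.22, adjusted p = 0.999), *Cacng5* in KO controls (0.15, adjusted p = 0.685), *Cacng1* for PTX averaged over genotypes (-2.54, adjusted p = 0.475) and *Cacng3* between sexes (0.42, adjusted p = 0.659). *Cacng7* had it for the difference of the PTX effects (0.20, adjusted p = 0.724) and for KO averaged over treatments (0.11, adjusted p = 1.0).

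Partners of the channels were well measured, with 27 of 31 tested and calmodulin highest (*Calm2* at 781 FPKM). None passed edgeR's threshold in any comparison. For PTX in WT, 10 of 27 had an unadjusted p under 0.05, beside 13.5% of all genes, 11 lay above and 16 below 0, and the median log2 difference was -0.04 against -0.01 over all genes. *Rims1*, a scaffold that ties calcium channels to the release site, was at 5.80, 6.19 and 7.42 FPKM in WT controls and at 7.70, 7.78 and 8.33 FPKM after PTX, a log2 difference of 0.30 ± 0.07 (SE, edgeR adjusted p = 0.211), and DESeq2 called it. *Thbs4*, a thrombospondin that binds α2δ-1, was at 5.38 to 6.19 FPKM in KO controls and at 3.05 and 3.30 FPKM in KO PTX mice, a log2 difference of -0.87 (edgeR adjusted p = 0.999). It ran from 2.83 to 5.51 FPKM in WT controls and from 2.72 to 3.79 FPKM after PTX. Averaged over genotypes it differed by -0.61 (edgeR adjusted p = 0.414), and DESeq2 called it. For the PTX effect in KO 2 of 27 partners had an unadjusted p under 0.05 (4.32% of all genes, median 0.01) and for KO controls 3 of 27 (7.54% of all genes, median 0.01), with *Rims1* at 0.21 (adjusted p = 0.657). After PTX it was 1 of 27 (3.55% of all genes), *Stx1a*, a release-site SNARE protein that binds N-type channels, at 0.29 (adjusted p = 0.993). The smallest p belonged to *Stx1a* for the difference of the PTX effects (0.35, adjusted p = 0.724), to *Rims1* for KO averaged over treatments (0.10, adjusted p = 1.0) and to *Usp5*, a deubiquitinase of T-type channels, between sexes (-0.14, adjusted p = 0.485).

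Of the 5 other genes tied to gabapentin by binding or transport, *Slc7a5* and *Slc7a8* encode amino acid transporters named as carriers of the drug, *Bcat1* an enzyme of branched-chain amino acids, and *Kcnq3* and *Kcnq5* potassium channels that it can open. All 5 were tested and none passed edgeR's threshold. *Slc7a5*, the highest at 15.0 FPKM, was at 16.2, 20.7 and 15.7 FPKM in WT controls and at 13.4, 14.3 and 11.6 FPKM in WT PTX mice. These groups did not overlap, and the log2 difference was -0.42 ± 0.10 (SE, edgeR adjusted p = 0.203), which DESeq2 called. Its highest value was again that of WT control 2. The median log2 difference of the 5 genes was 0.01 for PTX in WT, 0.06 for that in KO, -0.03 for KO controls and 0.14 after PTX, with 1, 1, 1 and 0 of 5 at an unadjusted p under 0.05, beside 13.5%, 4.32%, 7.54% and 3.55% of all genes. *Slc7a8* had the smallest p for the PTX effect in KO (0.21, adjusted p = 0.999), after PTX (0.17, adjusted p = 0.993) and for KO averaged over treatments (0.07, adjusted p = 1.0). *Slc7a5* had it in KO controls (-0.24, adjusted p = 0.657), for the difference of the PTX effects (0.38, adjusted p = 0.724), for PTX averaged over genotypes (-0.23, adjusted p = 0.443) and between sexes (-0.20, adjusted p = 0.547).

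No gene of the cell marker and injury lists passed edgeR's threshold in any of the 8 comparisons. The 10 tested nerve injury genes had a median log2 difference of -1.64 for PTX in WT and of -1.0 for KO controls, where the WT controls enter as the reference, against -0.06 for the PTX effect in KO and 0.35 between KO and WT mice given PTX. They also lay below 0 for 10 of 10 genes between labelled females and males, with a median of -1.87, and DESeq2 called 5 of them. The injury gene with the smallest p was *Atf3* for PTX in WT (-2.02, adjusted p = 0.238) and KO controls (-1.47, adjusted p = 0.657), *Npy* for the PTX effect in KO (1.83, adjusted p = 0.999), and *Ecel1* between genotypes after PTX (1.55, adjusted p = 0.993) and for the difference of the PTX effects (2.76, adjusted p = 0.724). It was *Gadd45a* for PTX averaged (-0.54, adjusted p = 0.454) and KO averaged (-0.37, adjusted p = 1.0), and *Sprr1a* between sexes (-7.01, adjusted p = 0.0686), all by edgeR. The 14 sensory neuron markers had medians of 0.05, 0.04, 0.06 and 0.02 in the 4 comparisons, in the order WT after PTX, KO after PTX, KO against WT controls and KO against WT after PTX. In the same order the 12 tested skeletal muscle genes had medians of -2.73, -1.55, -0.48 and 0.64, the 7 satellite glial markers -0.07, -0.01, -0.05 and 0.03, and the 8 myelinating Schwann cell markers -0.10, -0.21, 0.03 and -0.12. The 8 macrophage markers had medians of -0.58, -0.10, -0.32 and 0.13, and DESeq2 called 4 of them for PTX in WT and 2 for PTX averaged over genotypes. Medians were -0.18, -0.10, -0.14 and -0.03 for the 5 tested smooth muscle and pericyte markers, -0.02, -0.17, 0.15 and -0.06 for the 4 endothelial markers, and -0.49, -0.29, -0.56 and -0.34 for the 5 blood genes. DESeq2 also called single genes of other lists. It called the glial *Fabp7* for PTX in WT (-0.42 by edgeR), for PTX and KO averaged (-0.38 and -0.36) and between sexes (-0.60). It called the neuronal tubulin *Tubb3* for PTX in WT (-0.29) and between sexes (-0.25), the injury gene *Gadd45a* for PTX in WT, and *Aqp4* for PTX in WT (0.64) and PTX averaged (0.58). Of the 11 spinal cord and central glia genes only 2 were tested, *Aqp4* and *Mobp*, with medians of -0.14, 2.30, -0.83 and 1.61. The part of these cells in the members' differences was not tested beyond the scores of injury, muscle, spinal cord and neurons used as covariates.

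Genes whose levels followed a member most closely over the 11 libraries are given as a description, by Pearson's r of log2(FPKM + 1), and these libraries share groups, sex and tissue makeup. For *Cacnb4* they were the circadian gene *Clock* (0.98), the axonal adhesion gene *Cntn1* (0.97) and the kinase gene *Prkg1* (0.97), with r of 0.92, 0.92 and 0.90 without the 2 libraries farthest from the median. For *Cacna2d1* they were *Rap1b* (0.96), *Rasef* (0.95) and *Ell2* (0.95), with 0.78, 0.70 and 0.85 without those 2 libraries. For *Cacna2d2* they were *Foxd3* (0.90), a transcription factor of neural crest and glia, and the unnamed genes *Gm8210* (0.89) and *Gm13841* (0.88), with 0.85, 0.84 and 0.83. For *Cacna2d3* they were *Scrn1* (0.97), *Gm9761* (0.95) and *Zfp869* (0.91), with 0.96, 0.95 and 0.82. For *Cacna1a* they were *Basp1* (0.95), *Nrbp2* (0.93) and *Nrxn2* (0.92), with 0.91, 0.71 and 0.71. For *Cacna1c* they were *Ndst3* (0.92), *Msh3* (0.91) and *Tbp* (0.91), with 0.82, 0.82 and 0.83. Those of *Cacna1h* were *Gm25394* (0.92), *Gm10524* (0.91) and *Src* (0.89), with 0.87, 0.94 and 0.89. Those of *Cacnb1* were *Alg3* (0.86), *Khsrp* (0.85) and *Igf2bp2* (0.84), with 0.66, 0.60 and 0.72. Those of *Cacnb3* were *Sympk* (0.93), *Aldh1l1* (0.92) and *Gpr19* (0.92), with 0.74, 0.73 and 0.69. Those of *Cacna1b* were *Kdm2b* (0.90), *Smarcc1* (0.89) and *Gm45140* (0.88), with 0.73, 0.32 and -0.32, so that the last 2 rested on the 2 libraries left out. Among the 45 pairs of members, r ran from -0.63 (*Cacna1h* and *Cacnb4*) to 0.75 (*Cacna2d1* and *Cacna1b*, 0.47 without the 2 farthest libraries).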

How the data were processed

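DRG poly(A) libraries of 11 mice in 4 groups were made, per the labels, with a strand-specific mRNA kit. The submitters' processing notes name cutadapt, FastQC, HISAT2, StringTie and the mm10 build, without versions. The authors deposited 1 table with FPKM, scaled by them for gene length and library size, and estimated counts, not normalized, for each library (a count of 4 was held by 1369 genes in WT control 1 against 573 at 3 and 334 at 5). The counting tool's settings, strand use included, are not given in the sources used here. Titles and descriptions number the KO PTX libraries differently, and the descriptions (2 and 3) were used. Libraries of a group came from separate mice. The labels do not say that a shared replicate number marks a shared litter, batch or day. Same-numbered WT and KO controls deviated together over genes (r of 0.113, 0.116 and 0.230). In the other comparisons at least 1 same-numbered pair had r under 0.1. A differently numbered pair, WT control 1 and WT PTX 2, reached 0.170, and replicate 3 is the labelled female of each group. The numbers were thus treated only as a possible pairing. The main fit left it out, and a replicate block was run as an alternative.

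FPKM were used as deposited for levels, ratios and shares. Differences were tested on the rounded estimated counts with edgeR 4.0.16 in R 4.3.3 (TMM, quasi-likelihood, all 11 libraries in 1 fit with group and labelled sex) over the 15087 genes with a mean of at least 0.5 FPKM. P values were adjusted by Benjamini-Hochberg over all genes tested, and an adjusted p under 0.05 was a call. The SE was taken as |log2 fold change|/√F, and intervals are 95%. Alternatives were DESeq2 1.42.0, limma 3.58.1 on log2(FPKM + 1) and log2(FPKM + 0.1), other scalings, filters and covariates, a replicate block and each library left out. Exact permutation tests, shares and figures used scipy 1.17.1, pandas 2.3.3, numpy 2.4.6 and matplotlib 3.10.9 in Python 3.11.15, and coding stretches came from GENCODE M21 (GRCm38) through biopython 1.88. Of the 36670 genes, 36532 were found there. The fits and exact tests were tested on simulated data.

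The members and gene lists were chosen with earlier results of these data known. By rule, all members are named, and of the lists of other subunits, partners, gabapentin genes and injury genes those past the threshold, those with the smallest unadjusted p in a comparison and the highest one. Other list genes, cell markers included, were named after their values were seen. For likeness, the 3 genes with the highest r per member are named. A list score is the mean of log2(FPKM + 1).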

Additional observations from a re-analysis of the deposited data

How the results depend on the processing

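The count of members called by edgeR or limma was 0 in each of the 8 comparisons under each alternative, leave-one-out runs included (lowest 0, highest 0). DESeq2 called 1 member, *Cacna2d2*, in KO against WT after PTX and averaged over treatments, and none elsewhere. Over all genes, DESeq2 called 309 genes for PTX in WT, 29 in KO, 42 for KO controls, 10 after PTX, 12 for the difference of the PTX effects, 125 for PTX averaged, 28 for KO averaged and 124 between sexes, against 1, 1, 1, 2, 1, 2, 2 and 6 by edgeR. Under the other settings the counts reached at most 30, 7, 6, 7, 6, 18, 5 and 19 in the same order, the 30 without WT control 3, the 18 without WT control 2 and the 19 with the muscle score, and fell to 0 for PTX in WT.

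Of 644 single log2 differences over 25 results, 631 kept their direction and side of the threshold, 2 were past it with DESeq2 (0.93 and 0.74 for *Cacna2d2*, as above) and 11 changed sign, none of them called. For *Cacna2d1*, PTX in WT was 0.29 with the injury score and 0.13 without both WT controls of high injury genes, and KO controls 0.072 and 0.054, where the main values were -0.13 and -0.21. Leaving out single libraries gave -0.31 to 0.21 and -0.39 to 0.13, the sign turning without WT control 2 alone. *Cacna2d2* for PTX in KO was -0.12, 0.0039 with the replicate block, 0.026 with the muscle score and -0.38 to 0.13 with libraries left out. *Cacnb3* for PTX in KO was 0.06, and -0.046 with the spinal cord score. The causes were not tested. Of the order, 9 pairs lost the threshold in the 6 control libraries alone, where the smallest adjusted p of any pair was 0.075 by the sign-flip test. The smallest p that this exact test allows is higher with 6 libraries than with 11. For the pairs at 0.075 the loss thus does not show a weaker order. Above that value, by the same test, lay *Cacna2d3* to *Cacna1a* and *Cacna2d1* to *Cacna2d2* (adjusted p = 0.094 each), *Cacnb4* to *Cacna1b* (0.15) and *Cacna1a* to *Cacna1h* (0.17). Over the 11 libraries their log2 ratios were 0.19, 0.87, 0.18 and 0.20, each larger than in the controls. The log2 ratios in the 6 control libraries were 2.21 (*Cacnb3* to *Cacna2d1*), 0.28 (*Cacna2d1* to *Cacnb1*), 0.14 (*Cacnb4* to *Cacna1b*), 0.16 (*Cacna2d3* to *Cacna1a*) and 0.16 (*Cacna1a* to *Cacna1h*). The others were 1.01 (*Cacna1h* to *Cacna1c*), 0.72 (*Cacna2d1* to *Cacna2d2*), 0.84 (*Cacna1b* to *Cacna1a*) and 2.49 (*Cacnb3* to *Cacnb1*). By counts per exon length, *Cacna2d3* to *Cacna1a* was 0.081 and no longer passed. With libraries left out, *Cacna2d2* to *Cacna2d3* ran from 0.24 to 0.41, passing without WT PTX 2, and *Cacna1b* to *Cacna2d2* from 0.25 to 0.41, passing without KO control 1. The log2 ratio of *Cacna1b* to *Cacna1a* for PTX (0.002) ran from -0.094 to 0.10 and that of *Cacnb3* to *Cacnb4* for KO (-0.05) from -0.11 to 0.026.

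Deviations of same-numbered libraries correlated at -0.16 to 0.25 (7 of 15 pairs over 0.1, against 4 of 30 other pairs), with all 3 pairs of WT and KO controls over 0.1. With the replicate number as a block, 0 members were called in each comparison, so that this block changed no call. *Cacna2d2* was then 0.54 in KO controls and 1.03 after PTX. KO PTX rests on 2 libraries, and leaving out 1 of them assumes that the other varies like the other groups. Leaving out both WT controls of high injury genes left 1 WT control, the labelled female, and rests on the same assumption.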
